A study of Mus musculus with 10 samples.

Results

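C1qc, Laptm5, Cd5 and Cd79b are genes commonly used as markers of microglia and lymphocytes, and their RNA was measured in the midbrain of mice with collagen-induced arthritis against control mice. They were chosen as the probes whose single gene symbol in the platform's annotation is one of these names. Each gene had 1 probe, so they are 4 of the 8726 genes named by single-symbol probes on an array of 10080 probes. All mice were DBA/1 males, an inbred strain prone to arthritis after immunisation with type II collagen, and were 8 weeks old at injection. The arthritic group received 100 ul of type II collagen with 100 ul of complete Freund's adjuvant into the skin, and the control group received 200 ul of the adjuvant without collagen. LPS, a bacterial endotoxin, was given to both groups at day 24, so the controls also carried an adjuvant and an endotoxin stimulus; death is labelled as day 31 with an unclear unit. Each of 10 arrays held collagen RNA in one dye and control RNA in the other, and the arrays form 5 dye-swap pairs that the labels number as replicates 1, 2 and 3. Replicates 1 and 2 consist of 2 pairs, replicate 3 of 1. The number of animals behind each RNA was not stated in the labels.

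The genes mark different arms of immunity. C1qc encodes the C chain of C1q, the recognition protein that starts the classical complement cascade; in the brain it is made mainly by microglia, the resident macrophages. Laptm5 encodes a lysosomal membrane protein of blood-derived cells that sends antigen receptors of T and B cells to degradation. Cd5 encodes a surface glycoprotein of T cells and of a subset of B cells that dampens antigen receptor signalling, and Cd79b encodes Ig-beta, a signalling chain of the B-cell receptor. In whole tissue, fewer cells of a type and less RNA per cell cannot be told apart.

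The sequences around the starts of the genes are shown to see what the members share beyond their annotation. RefSeq promoter windows of build GRCm38.p6, from 250 bases before to 50 bases after the start, were at hand for C1qc (chr4:136892865-136893164, minus strand), Laptm5 (chr4:130913066-130913365, plus strand) and Cd5 (chr19:10738925-10739224, minus strand). The capitals mark GAGGAA, a core recognised by the myeloid and B-cell factor PU.1, or its reverse complement TTCCTC.
C1qc: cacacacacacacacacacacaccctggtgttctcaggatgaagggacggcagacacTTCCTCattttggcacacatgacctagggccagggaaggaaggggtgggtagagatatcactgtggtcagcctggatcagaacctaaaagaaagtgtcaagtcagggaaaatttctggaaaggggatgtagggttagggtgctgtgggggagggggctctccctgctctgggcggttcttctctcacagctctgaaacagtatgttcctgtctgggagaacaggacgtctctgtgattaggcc
Laptm5: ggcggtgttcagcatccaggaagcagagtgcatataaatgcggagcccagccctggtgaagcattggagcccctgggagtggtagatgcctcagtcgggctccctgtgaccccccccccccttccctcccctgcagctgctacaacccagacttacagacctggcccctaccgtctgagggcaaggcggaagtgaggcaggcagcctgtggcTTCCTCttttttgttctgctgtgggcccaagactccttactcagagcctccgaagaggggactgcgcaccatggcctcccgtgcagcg
Cd5: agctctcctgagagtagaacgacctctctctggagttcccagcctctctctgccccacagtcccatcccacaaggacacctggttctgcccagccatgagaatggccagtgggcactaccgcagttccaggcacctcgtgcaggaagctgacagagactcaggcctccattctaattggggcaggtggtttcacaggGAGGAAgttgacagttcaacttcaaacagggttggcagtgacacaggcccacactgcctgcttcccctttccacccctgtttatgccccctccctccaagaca
All 3 windows hold GAGGAA once, on the opposite strand at -193 to -188 from the start in C1qc and at -38 to -33 in Laptm5, and on the same strand at -53 to -48 in Cd5. On either strand this motif stands in 28.3% of the 32851 promoter windows of the table, so it is common. TATAAA was found only in Laptm5 among the 3, at -218 to -213, and stands in 13.6% of all windows. CAGGTG, an E-box, was found only in Cd5, once on each strand, and stands in 20.2% of all windows. These matches describe the letters of the windows, and none of the array values bears on them. In the RefSeq gene order C1qc lies between C1qb and C1qa, which encode the other chains of C1q, and Cd5 lies next to Cd6, which encodes a related surface protein of T cells.

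Detection came first, because a ratio needs a signal in both channels. The scanner files hold 29 scans of the 10 arrays, 2 or 3 for each array. A spot was taken as detected in a channel where its background-corrected intensity was over 0 and the quantification had not flagged it X, Y or Z. Both channels were detected in 17 of 29 scans for C1qc, in 20 for Laptm5, in 15 for Cd5 and in 18 for Cd79b. All of these scans except 2 of Laptm5 belonged to the only pair of replicate 3 and the second pairs of replicates 1 and 2. In the 11 scans of the first pairs of replicates 1 and 2, C1qc, Cd5 and Cd79b had no scan with both channels, and Laptm5 had 2. Channel A alone was detected there in 5 scans for C1qc, 9 for Laptm5, 8 for Cd5 and 6 for Cd79b, and channel B alone in 0 for each. If A is Cy3, channel B held collagen RNA on one array of each of these pairs and control RNA on the other. If the letters stand for the RNAs instead, it held collagen RNA on all 4. These cannot be told apart. Over all spots, both channels were detected in 47.2% of spots on the first pairs and in 58.9% on the other arrays. Channel A alone was detected in 34.5% of all spots on the first pairs and channel B alone in 0.0595%. On the other arrays these shares were 33.4% and 0.461%. The rarity of channel B alone was thus general to all 10 arrays and not particular to the first pairs or to the 4 genes. Both channels together were detected less often for the 4 genes on the first pairs, in 0 to 2 of 11 scans each, than over all spots.

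**Figure D1:**
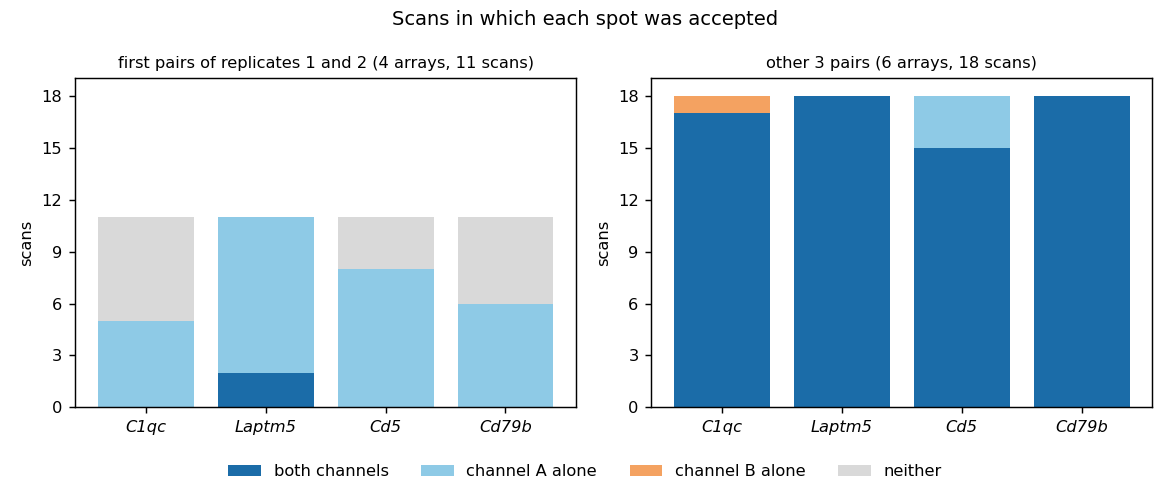
Number of scans (vertical axis) in which the spot of each gene was detected in both channels, in channel A alone, in channel B alone or in neither, for the 4 arrays of the first pairs of replicates 1 and 2 (left) and the other 6 arrays (right). Both channels were detected in 0 to 2 of 11 scans on the left and in 15 to 18 of 18 scans on the right.

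As a consequence, a dye-swap pair with both arrays measured existed for each gene only once per replicate. Each of the 3 replicate values below is therefore a single pair, and the repeat pairs of replicates 1 and 2 add nothing to them. Of the 4139 probes that could be tested, 1682 had 1 pair per replicate and 1830 had all 5 pairs. For 1570 (37.9%), as for the 4 genes, neither first pair of replicates 1 and 2 was measured.

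The strength of each spot was read as its background-corrected intensity divided by the deposited background of the same spot, so that any detected spot lies above 0 and a value of 1 means a corrected signal as large as the background. The median of this ratio over all spots with both channels detected was 0.675 to 2.77 in channel A and 0.690 to 3.11 in channel B, depending on the scan. The medians of the 4 genes over all scans fell inside those ranges. On the first pairs of replicates 1 and 2 the range in channel A was 1.20 to 2.77. C1qc and Cd79b lay below it there, with medians of 0.991 and 0.931 over the scans detected in channel A. Laptm5 and Cd5 lay inside it, at 1.24 and 1.43. The ratio of C1qc in channel A had a median of 1.07 over the scans in which it was detected, between 0.701 and 4.00, and in channel B a median of 2.28, between 1.11 and 4.62. In 10 scans both of its channels had a ratio over 1. Laptm5 had a median of 1.18 in channel A and 1.38 in channel B, with both ratios over 1 in 8 scans. Cd79b had medians of 0.931 and 1.26, with both ratios over 1 in 7 scans. Cd5 had medians of 0.982 and 0.910, and in 0 of 29 scans were both ratios over 1, although both channels were detected in 15. In replicate 3, Cd5 reached 3.04 and 2.76 times the background in channel B while channel A stayed at 0.707 and 0.689. On the collagen-in-Cy5 array of the second pair of replicate 2 its channel B stood at 0.224 times the background, and that array gave a ratio in 1 scan of 3. Brightness is not compared between genes here, since probes differ in how well they bind.

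**Figure D2:**
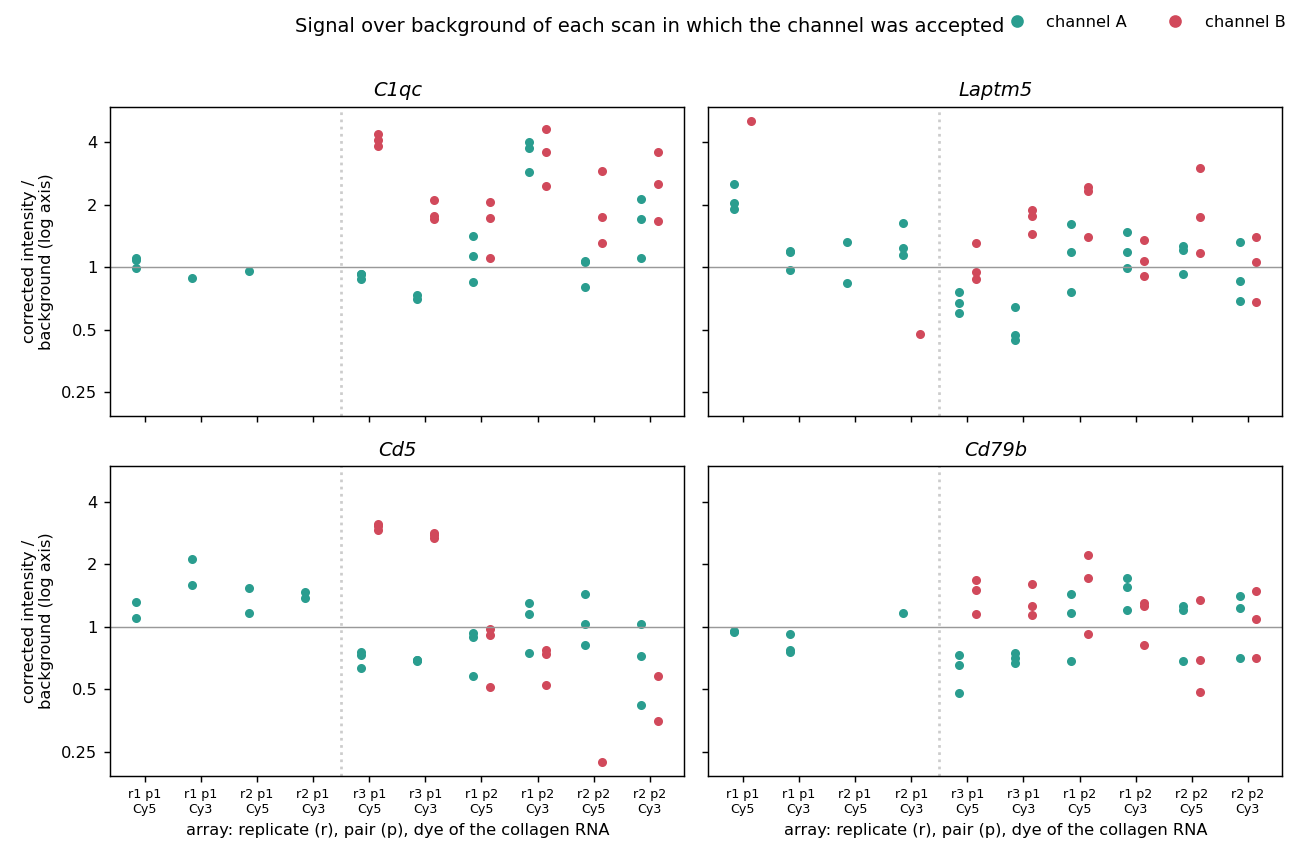
Background-corrected intensity over the deposited background (log axis) in channels A and B for every scan in which that channel was detected, by array; the dotted line separates the first pairs of replicates 1 and 2 from the other arrays, and the solid line marks a ratio of 1. Channel B is missing on the left except for 1 scan each on 2 arrays of Laptm5, and Cd5 lies below 1 in at least 1 channel in every scan with both.

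The comparison of interest was whether these genes were expressed at another level in the midbrain of arthritic mice. All ratios are log2 collagen over control, so a value below 0 means less RNA in the collagen-injected mice. This direction takes channel A as Cy3 and B as Cy5, after the order of the labels; it is likely rather than stated, and with the letters the other way round every sign would turn. None of the 4 genes passed the test, limma's moderated test of the mean of 3 replicates against 0 with Benjamini-Hochberg adjustment over all tested probes, called at an adjusted p under 0.05. Of all 4139 probes 0 passed (0%), and 163 (3.94%) had an unadjusted p under 0.05.

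For C1qc, the array with collagen in Cy5 and its dye swap gave -0.23 and 0.08 in replicate 1, 0.14 and -0.27 in replicate 2, and 0.03 and -0.47 in replicate 3. The arrays of a pair lay on opposite sides of 0 in all 3 pairs, by 0.15 to 0.25 on either side of the pair's mean. Averaged over the dyes, the replicates stood at -0.07, -0.06 and -0.22, all below 0. The mean was -0.12 ± 0.09 (SD, n = 3), with a 95% interval of -0.31 to 0.08 and an adjusted p of 0.827 in limma. Its spread between replicates was smaller than that of most probes, at the 27.0th percentile of the SDs. Without replicate 3 the mean was -0.07, and with median centring in place of loess it was 0.05, on the other side of 0.

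The other chains of C1q were also on the array and gave a way to look at the same protein through other probes. C1qa, the A chain, stood at -0.12, -0.24 and 0.49 in the replicates, with a mean of 0.04 ± 0.39 (SD, n = 3). C1qb, the B chain, stood at -0.01, -0.12 and -0.04, with a mean of -0.06 ± 0.06. As replicate values, all 3 chains were below 0 in replicates 1 and 2, while in replicate 3 C1qa was high and C1qc was at its lowest. In replicate 1, however, C1qc was measured in the second pair alone, and there C1qb stood above 0, at 0.17. The value of C1qb in replicate 1 averages this with -0.19 in the first pair, which C1qc lacks. Neither C1qa nor C1qb passed the test (limma adjusted p = 0.953 and 0.878).

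Laptm5 gave 0.01 and 0.08 on the arrays of replicate 1 with collagen in Cy5 and in Cy3, 0.25 and -0.28 in replicate 2, and -0.18 and -0.78 in replicate 3. The replicates thus stood at 0.04, -0.02 and -0.48: replicate 3 was low and the others lay near 0. The mean was -0.15 ± 0.29 (SD, n = 3), with a 95% interval of -0.45 to 0.15 (limma adjusted p = 0.831). Without replicate 3 it was 0.01. Its SD lay at the 84.5th percentile of all tested probes. Of the 8 arrays with a ratio, 5 were above 0 and 3 below; 2 of them had no measured dye swap and did not enter the mean. Those were arrays of the first pairs, with 0.98 in replicate 1 and 0.26 in replicate 2, each from 1 scan of 3. With all arrays in 1 fit they turned the sign of Laptm5, to 0.04.

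Cd5 gave -0.03 and -0.17 in replicate 1, -0.68 and 0.30 in replicate 2, and 0.26 and -0.48 in replicate 3, in the same order of dyes. The arrays disagreed in sign in replicates 2 and 3, yet the pair means were close together at -0.10, -0.19 and -0.11. Their mean was -0.13 ± 0.05 (SD, n = 3), with a 95% interval of -0.32 to 0.05 (limma adjusted p = 0.827). The SD between replicates was among the smallest, at the 9.93th percentile of tested probes, although the arrays of a pair lay up to 0.49 from their mean. That gap is wider than the distance of the mean from 0, and the small SD between replicates does not show it. In limma's fit over all 10 arrays with no replicate block, the unadjusted p was 0.397, against 0.125 over the 3 replicates. Cd5 had a ratio on 6 of those arrays, and that fit takes the arrays of a pair as separate samples.

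Cd79b was the one gene above 0. Its arrays gave 0.26 and -0.01 in replicate 1, 0.38 and 0.03 in replicate 2, and 0.43 and 0.64 in replicate 3. Of the 6 arrays 5 were above 0, and the remaining one was the dye-swapped array of replicate 1. Scans of 1 array differed widely for this spot: on the collagen-in-Cy5 array of replicate 2 they gave -0.60 to 1.06, and on that of replicate 3 0.01 to 1.14. The replicates stood at 0.13, 0.20 and 0.54, with the highest in replicate 3. The mean was 0.29 ± 0.22 (SD, n = 3), and its 95% interval of 0.03 to 0.55 did not reach 0 when taken on its own. It did not pass after adjustment (limma adjusted p = 0.827, unadjusted p = 0.0340), and it ranked 95 of 4139 by p. The unadjusted bound was passed upward by 50 of 4139 probes (1.21%). The size moved with the processing: 0.17 without replicate 3, 0.11 with the second scan of each array alone, 0.46 with the first scan alone and 0.02 with median centring.

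**Figure D3:**
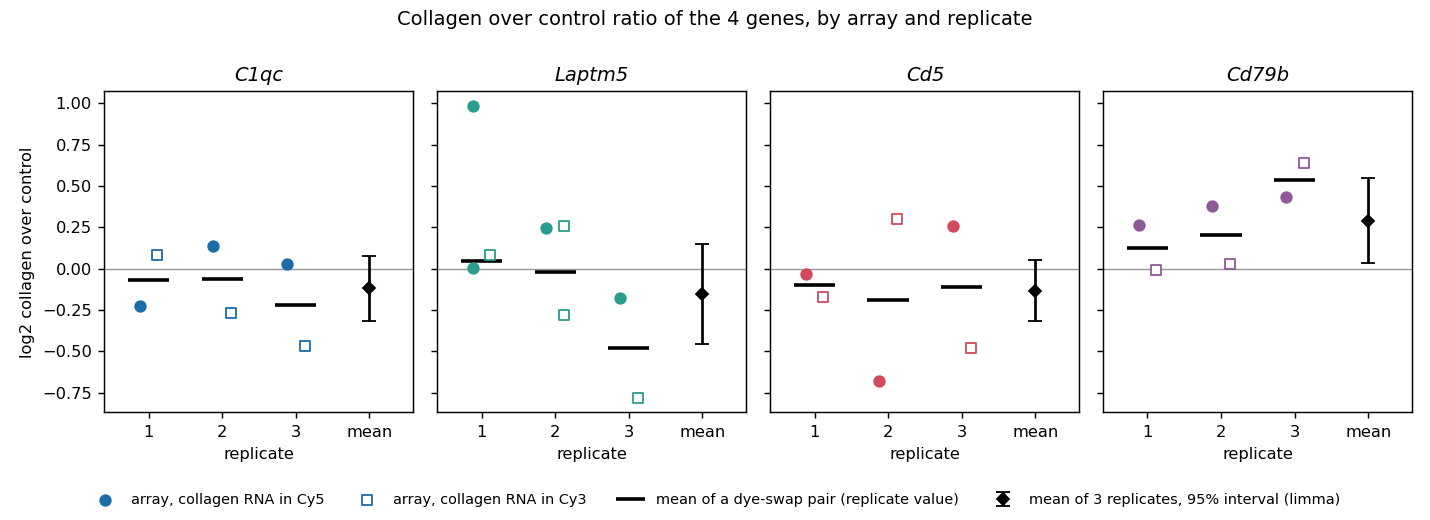
Log2 collagen over control (vertical axis) of each gene by replicate, with filled circles for arrays with collagen RNA in Cy5, open squares for arrays with it in Cy3, bars for the mean of the measured dye-swap pair, and a diamond with its 95% interval for the mean of the 3 replicates. Pair means lie at or below 0.04 for C1qc, Laptm5 and Cd5 and at 0.13 to 0.54 for Cd79b; the Laptm5 arrays at 0.98 and 0.26 have no measured dye swap.

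Set side by side, 3 of the 4 genes had the same sign in all replicates, C1qc and Cd5 below 0 and Cd79b above. Of all tested probes 29.7% had the same sign throughout, 20.8% below and 8.92% above 0. The tested probes leaned low as a whole, with 2451 means below 0, 1688 above and a median of -0.02, and relative to that median C1qc stood at -0.09, Laptm5 at -0.13, Cd5 at -0.11 and Cd79b at 0.31. The 95% interval of each of the 4 genes, taken on its own, lay within a 1.5-fold change in either direction, as it did for 93.2% of tested probes. Across all tested probes the mean ratios had an SD of 0.133.

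**Figure D4:**
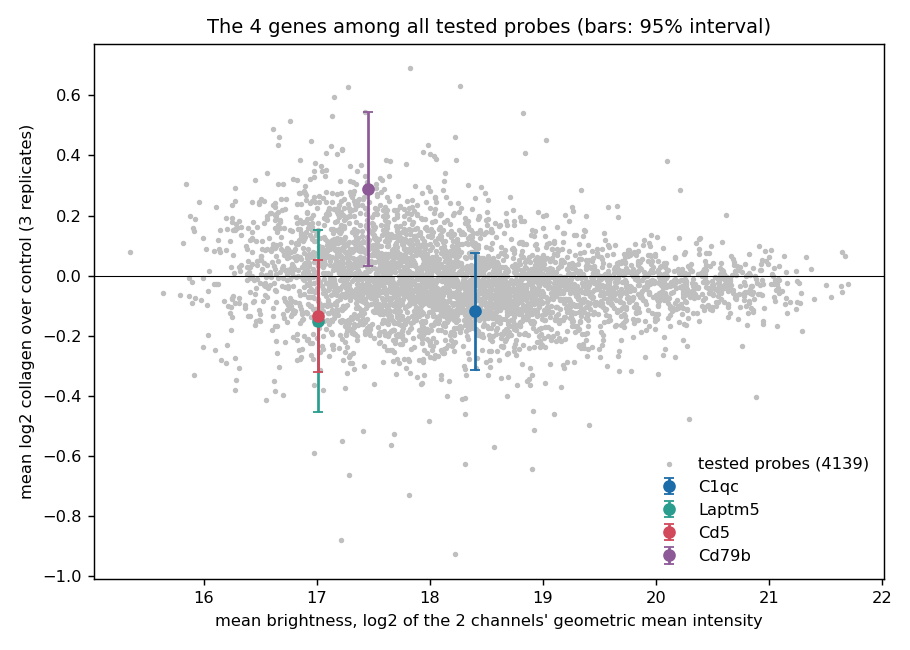
Mean log2 collagen over control of the 3 replicates (vertical axis) against mean brightness (horizontal axis, log2 intensity averaged over channels) for all 4139 tested probes in grey and the 4 genes in colour with their 95% intervals. C1qc, Laptm5 and Cd5 lie at -0.12, -0.15 and -0.13 and Cd79b at 0.29; positions along the brightness axis are not compared between genes.

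The channels themselves were compared without turning the arrays. The log2 ratio of channel B over A, averaged over both dye orientations, was 0.10 ± 0.22 for C1qc, 0.18 ± 0.19 for Laptm5, -0.02 ± 0.44 for Cd5 and 0.07 ± 0.15 for Cd79b (SD, n = 3). None of the 4 passed limma's test for a channel difference, with adjusted p from 0.417 to 0.965, where 1.33% of all tested probes passed. At an unadjusted p under 0.05 it was 0 of the 4 genes and 18.9% of all tested probes. For Cd5 the channel ratio was 0.07, -0.49 and 0.37 in the replicates, a wider range than its collagen over control ratio. Should the letters stand for the RNAs instead of the dyes (A for control, B for collagen), these channel values would be the treatment values. C1qc and Laptm5 would then lie above 0 and Cd5 and Cd79b would keep their signs.

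Other genes of the same cells and pathways showed how far the 4 can stand for them. Of 28 listed genes of microglia and macrophages 15 had a probe and 7 were tested, 3 above and 4 below 0, with a median of -0.06 against -0.02 over all tested probes. The 7 include C1qc and Laptm5 themselves, both below 0. Means of the others were 0.02 for P2ry12, 0.04 for C1qa, -0.06 for C1qb, 0.07 for Fcer1g and -0.09 for Ly86. P2ry12, the purinergic receptor of resting microglia, had a ratio on all 10 arrays and stood at -0.08, -0.08 and 0.23 in the replicates. The first 2 values include the first pairs of replicates 1 and 2, at -0.37 and -0.23, in which the 4 genes had no pair value. In the second pairs of replicates 1 and 2 it stood at 0.21 and 0.07. Fcer1g, the adaptor of Fc receptors, spread from -0.55 to 0.89, and Ly86, a partner of a Toll-like receptor homologue, from -0.36 to 0.14. Another 6 genes had values in some replicates only, on both sides of 0. In replicates 1 and 2, Aif1, which encodes the microglial protein Iba1, stood at -0.02 and -0.35, Itgam, an integrin chain, at -0.08 and 0.02, Cd53, a tetraspanin, at 0.46 and -0.06, and Irf8, a myeloid transcription factor, at 0.08 and 0.21. Cd68, a lysosomal protein of macrophages, stood at -0.07 in replicate 2 and 0.28 in replicate 3, and Cd14, a co-receptor for LPS, at 0.59 in replicate 2. Of 14 genes of classical complement 7 had a probe, and the 3 tested were the C1q chains.

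T-cell genes were barely measured. Of 17 listed genes 11 had a probe, and Cd5 was the single one tested. Of the genes of the T-cell receptor complex, which define these cells, Cd3d had a ratio on 0 arrays, Cd3g on 1, Cd3e on 4 and Cd247 on 5. Lat, an adaptor of that receptor, also had a ratio on 0 arrays. Cd7, a T-cell surface protein, had a ratio on 9 arrays and stood at -0.07 in both replicates 1 and 2. Zap70, a kinase of the T-cell receptor, stood at 0.10 and -0.48 there, and Cd8b1, a co-receptor chain of cytotoxic T cells, at 0.05 and 0.18. The other genes with any replicate value had 1 each: Cd3e -0.02 in replicate 2, Cd247 0.00 in replicate 1, and the Cd5 neighbour Cd6 0.06 in replicate 1. These values lay on both sides of 0. Cd5 thus had no other tested T-cell gene beside it.

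Among 15 B-cell genes 7 had a probe and 2 were tested, Cd79b and Ebf1, both above 0. Ebf1, a transcription factor of B cells that some neurons also express, stood at 0.16, 0.26 and 0.25, with a mean of 0.22 ± 0.06 (SD, n = 3; limma adjusted p = 0.827, unadjusted p = 0.0271). Unlike Cd79b it had a ratio on all 10 arrays, and all 5 of its pairs were above 0, between 0.08 and 0.35. Cd79a, which encodes the partner chain of Cd79b, was measured in the pairs where Cd79b was not: it stood at -2.03 in the first pair of replicate 1 and at 0.87 in the first pair of replicate 2. The chains of the B-cell receptor were therefore never measured as a pair of ratios in the same replicate pair. Pax5, the B-cell identity factor, stood at 0.18 and -0.07 in replicates 1 and 2. In replicate 1 alone, Blk, a B-cell kinase, stood at 1.19 and Pou2af1, a B-cell coactivator, at -1.08. Ms4a1, which encodes CD20, had a ratio on 3 arrays and no complete pair.

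Of 16 genes of antigen receptor signalling 6 had a probe, and the single one tested was Grb2, an adaptor, at -0.07. Of 22 lysosomal genes 9 had a probe and 7 were tested, 3 above and 4 below 0, with a median of -0.06. Laptm5 itself is among those below. Laptm4a, the family member of Laptm5 found in most cells, stood at 0.01 in each replicate, and so did not share the low value of Laptm5 in replicate 3. Cd63, a membrane protein of late endosomes, did stand lowest there, at -0.34, with a mean of -0.17. Npc1, a cholesterol exporter of the lysosome, stood at 0.10, -0.02 and 1.14 in the replicates. Means were -0.06 for Npc2, the soluble partner of Npc1, -0.11 for Scarb2, a lysosomal membrane protein, and 0.00 for Mcoln1, a lysosomal ion channel. Over these 6 lists, 13 genes besides the 4 were tested, 7 above and 6 below 0 with a median of 0.00, and 0 passed limma's test.

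**Figure D5:**
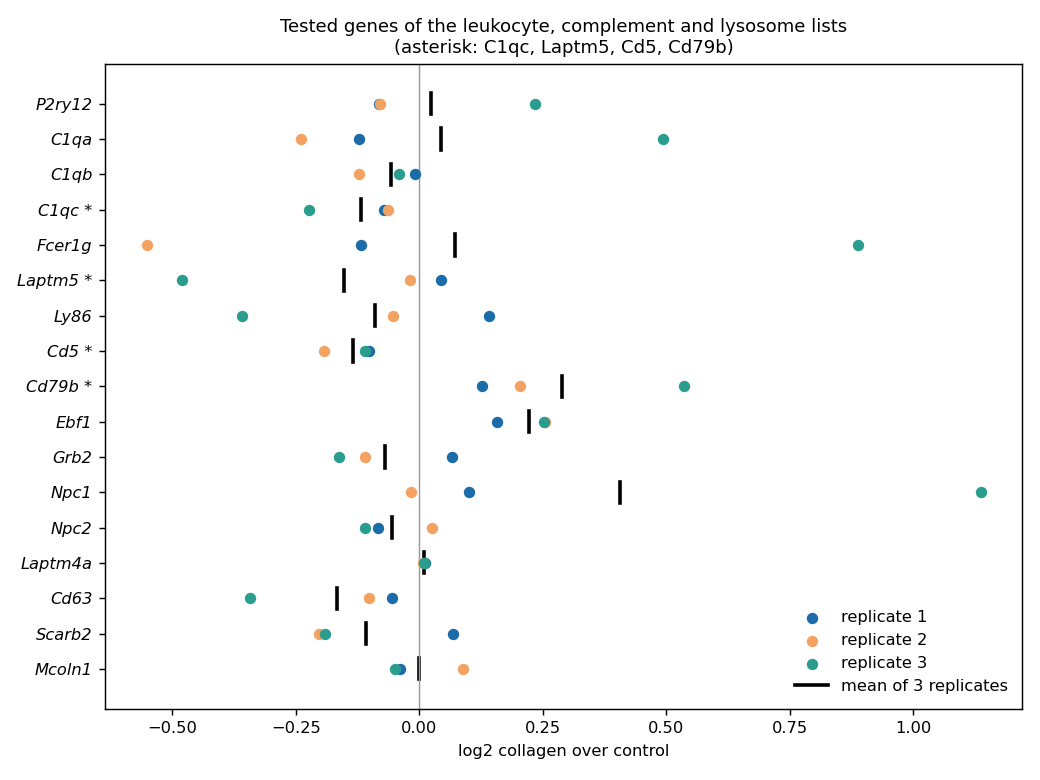
Log2 collagen over control (horizontal axis) in each replicate (coloured points) and its mean (black bar) for the tested genes of the microglia, complement, T-cell, B-cell, receptor signalling and lysosome lists, with asterisks at the 4 genes. Cd79b, Ebf1 and Laptm4a have all 3 replicates above 0, Laptm4a only by 0.01. Replicate 3 holds the most distant value of several genes, among them C1qc, Laptm5, Cd79b, C1qa, Fcer1g and Npc1.

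Markers of other cells in the tissue were read beside these values. Of the neutrophil list 3 genes were tested, S100a8 at 0.39, Lcn2 at 0.38 and Cxcr2 at -0.05, as means. Both S100a8, at -0.26, 0.91 and 0.50, and Lcn2, at -0.14, 1.49 and -0.19, were highest in replicate 2, where S100a9, not measured in replicate 1, stood at 1.43 against 0.02 in replicate 3. Mpo, also of that list and not measured in replicate 2, stood at -0.30 in replicate 1 and 0.78 in replicate 3. Cd5 was lowest in replicate 2 and Cd79b was highest in replicate 3. Of astrocytes 2 were tested, with a median of -0.06. Of neurons 6 were tested, 3 above and 3 below 0, with a median of -0.01. Their means ran from -0.29 for Syn1, a synaptic vesicle gene, to 0.35 for Th, a dopamine synthesis gene. The limma unadjusted p of Syn1 was 0.0494 and its adjusted p 0.827. Mag of oligodendrocytes stood at -0.04 and Eng of endothelium at 0.02. No red-cell gene of the list had a probe, so blood carried into the tissue was not judged, and its part in the values of Cd5 and Cd79b was not tested.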

How the data were processed

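Midbrain total RNA was made into Cy3 or Cy5 cDNA for 2-colour arrays, per the labels' protocols. The deposited scanner files give spot intensities that the authors had corrected for background, with the background intensity, per the file headers, not normalised between channels. The saturation factor, a fraction between 0 and 1 per the file headers, was used only to leave out saturated spots in an alternative. The authors' deposited value table holds a score of unstated scale and direction and served as an alternative. It correlated with the ratio of channel B over A at 0.672 to 0.835 across probes where collagen was in Cy5 and at -0.786 to -0.670 where it was in Cy3. The sources used here name no quantification program.

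Log2 ratios were normalised by loess within each scan (limma 3.58.1, R 4.3.3, span 0.3, 4 iterations), averaged over scans, turned to collagen over control, averaged over both arrays of a pair and over the pairs of a replicate. Probes with 3 replicate values were tested (n = 3), two-sided. Symbols were matched for 9066 probes, 12 had several and 1002 none; 8977 were updated through the gene identifier. On an array 4496 to 8425 probes gave a ratio. The number of replicates limits the precision. The p-values of the main fit rest on the spread between the 3 replicate values, moderated over all tested probes. They do not take in the gap between the arrays of a pair. By rule the text names the members, and with values the genes of the 6 lists nearest to them (microglia, complement, T cells, B cells, receptor signalling, lysosome) measured in all replicates; of 12 lists in all it gives counts and medians. Genes measured in fewer replicates, and those of neutrophils, neurons, oligodendrocytes and endothelium, were named after their values were seen. Likeness of patterns over 5 pairs, foreseen in the design, could not be computed because the members had 3. Scripts were tested on simulated data. Members and lists were chosen with earlier results of these data known. Alternatives covered background, normalisation, scans, filters, replicates and channel letters.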

Additional observations from a re-analysis of the deposited data

How the results depend on the processing

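Of 90 values of the 4 genes under alternatives none passed the adjusted test, and 83 kept their sign. That count includes settings that could not move a gene's mean, such as leaving out a first pair or changing the prior. In those the sign was fixed in advance, so the count says little about robustness. With all 10 arrays in 1 fit Laptm5 turned to 0.0391 with the replicate block (consensus correlation 0.0365) and to 0.0415 without it; the block changed no call of the 4 genes. C1qc turned to 0.0472 with median centring. With the letters standing for the RNAs (A control, B collagen), C1qc stood at 0.10 and Laptm5 at 0.18, and 55 probes passed. Cd5 stood at 0.0172 in the authors' deposited value table, of unknown scale and direction. Leaving out a replicate gave -0.15 to -0.07 for C1qc, -0.25 to 0.0128 for Laptm5 (highest without replicate 3), -0.15 to -0.11 for Cd5 and 0.17 to 0.37 for Cd79b. Other settings moved Cd5 more, to -0.30 with normexp (limma unadjusted p = 0.0486), -0.21 with median centring, -0.07 without background correction and -0.04 with print-tip loess. Over all its alternatives Cd79b lay between 0.02 and 0.46, with adjusted p from 0.724 to 0.996.

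Scans in which the corrected signal of both channels exceeded the background value numbered 10 for C1qc, 8 for Laptm5, 0 for Cd5 and 7 for Cd79b. Using only such spots, an alternative chosen after seeing the data, left 811 probes and none of the 4 genes; recentring, also added then, turned no sign. The first pair of each replicate, and all 5 pairs, gave no value for them either, nor did the first scan alone for C1qc or any single scan for Cd5. Dropping the dimmest or dimmer probes removed Laptm5, Cd5 and Cd79b.

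The count of 0 probes for the treatment held in 29 of 30 alternatives. The 55 probes for channel B over A became 0 with normexp, 0 with median centring, 83 after scaling between arrays, 13 for the first scan and 8 for the second, 130 or 128 with pairs as replicates (all 5, or at least 3), 392 over 10 arrays with no replicate block, 330 with the replicate block, 90 with a trended robust prior, 388 with array weights and 36 with only spots whose corrected signals exceeded the background. Leaving out a replicate or pair gave 28 to 218 (218 without replicate 1, 28 without 2, 90 without 3) and 33 without the first pair of replicate 1. Apart from the smaller numbers of probes or replicates, the cause was not tested.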

Other observations

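On the first pairs of replicates 1 and 2, channel A gave a signal in some scans; its means over those scans, divided by the background, follow. For Cd5 the ratio was 1.21 with control RNA and 1.86 with collagen RNA in replicate 1, and 1.35 and 1.43 in replicate 2, in the same order. For Laptm5 it was 2.16 and 1.12 in replicate 1 and 1.08 and 1.34 in replicate 2. For C1qc it was 1.06 and 0.889 in replicate 1, and 0.959 with control RNA in replicate 2, where the other array had no accepted spot. For Cd79b it was 0.950 and 0.818 in replicate 1, and 1.17 with collagen RNA in replicate 2. These compare separate arrays in 1 dye and are values only.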
